A study of Mus musculus with 6 samples.

Results

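The genes described here encode dual-specificity MAP kinase phosphatases, 10 genes of the *Dusp* family taken by name, among 29097 genes in the deposited table. They were *Dusp1*, *Dusp2*, *Dusp3*, *Dusp4*, *Dusp5*, *Dusp6*, *Dusp7*, *Dusp10*, *Dusp16* and *Dusp22*, and all 10 were among the 10440 genes with a mean of at least 1 FPKM (fragments scaled to gene length and library size) that were tested. Dual-specificity phosphatases remove phosphate from both the threonine and the tyrosine residue that activate a MAP kinase, and so switch off ERK, JNK or p38 signalling. Many of them are induced by the same pathways they shut down, which makes them feedback regulators. In neutrophils these pathways act in cytokine production, degranulation and survival.

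The study asked how ligature-induced periodontitis (LIP) alters peripheral blood (PB) neutrophils. Both groups were wild-type C57BL/6 males, 8 weeks of age. The LIP group, labelled Lig, carried silk ligatures on the second molars over 14 d, and the Ctrl group had none. After red cells had been lysed, neutrophils were sorted from blood as CD45+CD11b+Ly6G+ cells, and each of the 3 libraries per group was made with Smart-seq2 from the pooled cells of 5 mice. Total counts per library ranged from 52186555 to 57262379. As each library is a pool, p-values measure the spread between such pools and not between single mice.

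The label was checked first. *Itgam* and *Ly6g*, which encode surface proteins of neutrophils, and *Ptprc*, which encodes CD45, were detected in every library. *Ly6g* was at 18.7, 19.5 and 18.2 FPKM in the Ctrl libraries and at 37.8, 47.9 and 48.3 FPKM in the LIP libraries. *Itgam* was at 27.6, 14.8 and 27.5 FPKM in Ctrl and at 65, 60.1 and 63.8 FPKM in LIP. Both genes were therefore present in both groups, at a higher level in every LIP library. Markers of other blood cells were present as well: the 13 B cell markers summed to 10740, 11680 and 10930 FPKM in Ctrl and to 1790, 1792 and 1806 FPKM in LIP, with *Cd74* the most abundant. The 13 T cell markers, with *Lck* the most abundant, summed to 324.2, 346.4 and 319.6 FPKM in Ctrl and to 67.45, 64.74 and 53.21 FPKM in LIP. None of the B or T cell markers was at 0 in all libraries.

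Of the 10 phosphatase genes, 5 were higher in LIP (*Dusp1*, *Dusp3*, *Dusp5*, *Dusp6* and *Dusp16*) and 3 were lower (*Dusp2*, *Dusp4* and *Dusp10*) at an adjusted p under 0.05 after scaling by the trimmed mean of M values (TMM), but scaling on 21 neutrophil genes turned all 5 of the higher genes to lower. The call of *Dusp4*, which reached a mean of 1 FPKM only through the Ctrl libraries, was lost under other filters. That of *Dusp3* was lost with no FPKM filter. The test was edgeR's quasi-likelihood test with Benjamini-Hochberg adjustment over all 10440 genes. By the same rule 26.5% of all genes tested were higher in LIP and 27.2% were lower, 53.6% in either direction, so that calls were common throughout the transcriptome. These were 2766 genes higher and 2835 lower, against 1898 and 4179 when libraries were scaled to their totals and 48 and 9298 when they were scaled on the neutrophil genes. Across all genes tested, the median log2 change stood at -0.09 under TMM, -0.42 under library totals and -1.95 under the neutrophil scaling. Over the 10 phosphatase genes the median was 0.31 under TMM. The 21 neutrophil genes, among them *S100a8*, *S100a9*, *Csf3r* and *Ly6g*, took 2.431%, 2.647% and 2.598% of all reads in the Ctrl libraries and 7.288%, 7.624% and 7.335% in the LIP libraries. The list also held *Cxcl2*, *Ccrl2*, *Clec4e* and *Wfdc17*, and all 21 genes were higher in LIP under TMM and under library totals. Whether these genes changed per neutrophil was not tested, and the neutrophil scaling treats their summed reads as unchanged. Relative to the median of all genes, *Dusp1* was 1.68 higher on the log2 scale under TMM and under library totals and 1.69 higher under the neutrophil scaling. The values of *Dusp10* relative to that median were -2.25 under each of the 3 scalings. A change of scaling shifts all genes by nearly the same amount, so these values agree by construction. In the order of their changes *Dusp16* and *Dusp3*, whose values were close, changed places. In bulk samples, fewer cells of a type and less RNA per cell cannot be told apart. Words such as higher, lower, rise and fall refer to TMM scaling unless another is named.

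**Figure D1:**
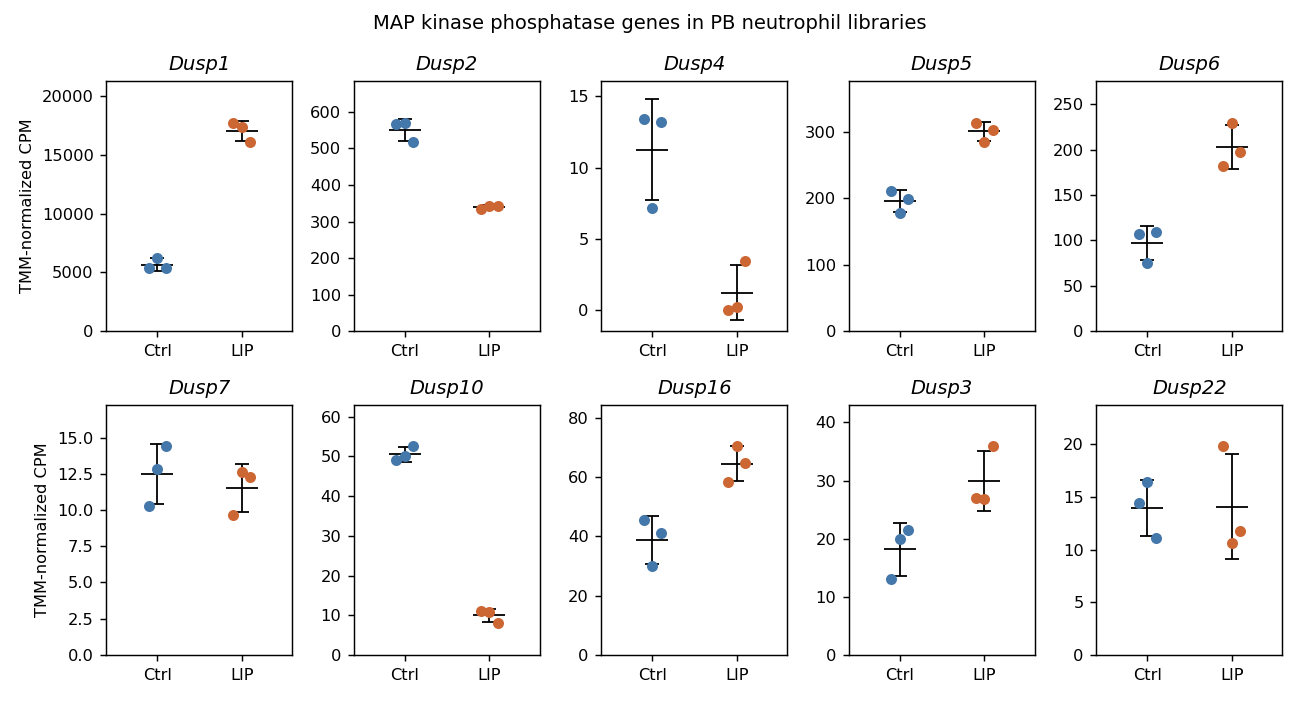
CPM (counts scaled to library size with TMM factors) of the 10 genes in 3 Ctrl libraries (blue) and 3 LIP libraries (orange); each point is a library made from a pool of 5 mice, and bars give the mean ± SD on a linear axis. The groups overlapped for *Dusp7* and *Dusp22* and were apart for the other 8 genes under this scaling, beside 63.4% of all genes tested. Scaling on neutrophil genes turned *Dusp1*, *Dusp3*, *Dusp5*, *Dusp6* and *Dusp16* to lower in LIP.

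The nuclear, inducible phosphatases form the first group, with *Dusp1*, *Dusp2*, *Dusp4* and *Dusp5*. *Dusp1* encodes a phosphatase that acts mainly on p38 and JNK and is induced quickly by stress and glucocorticoids. Its level was 5409, 6272 and 5349 CPM in the Ctrl libraries and 17750, 17350 and 16080 CPM in the LIP libraries. Every LIP library was far above every Ctrl library, and the spread within a group was small beside the gap. The mean was 5677 ± 516 CPM (SD, n = 3) in Ctrl and 17060 ± 870 CPM (SD, n = 3) in LIP. The log2 fold change was 1.59 (SE 0.0748), or 3.01-fold, with an adjusted p of 1.7e-07 in edgeR's quasi-likelihood test, and it was -0.27 under the neutrophil scaling. By mean FPKM *Dusp1* ranked 32 among the 10440 genes tested in Ctrl and 19 in LIP.

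*Dusp2* encodes a nuclear phosphatase of ERK and p38 that is prominent in activated lymphoid and myeloid cells. It was at 566.1, 570.2 and 516.7 CPM in Ctrl and at 335.4, 342.7 and 342.6 CPM in LIP. All LIP libraries lay below all Ctrl libraries and were nearly equal among themselves. The means were 551 ± 29.8 CPM in Ctrl and 340.2 ± 4.2 CPM in LIP (SD, n = 3 each). The edgeR estimate was -0.7 on the log2 scale (SE 0.0884, edgeR adjusted p = 8.78e-05). It was -1.02 under library totals and -2.55 under the neutrophil scaling. Both of these scalings shift all genes down by nearly the same amount, so a negative TMM value could only stay negative. The rank of *Dusp2* by mean FPKM moved from 166 in Ctrl to 356 in LIP.

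*Dusp5* encodes a nuclear phosphatase that acts on ERK alone. Its level was 211.4, 178.2 and 199.6 CPM in Ctrl and 313.8, 284.7 and 303.6 CPM in LIP. The groups did not overlap, and the rise was moderate. The means were 196.4 ± 16.8 and 300.7 ± 14.8 CPM (SD, n = 3 each), with a log2 fold change of 0.61 (SE 0.105, edgeR adjusted p = 0.000679) under TMM, 0.28 (edgeR adjusted p = 0.0424) under library totals and -1.25 under the neutrophil scaling. The adjusted p ranged from 2.59e-08 to 0.0424 over its 16 alternatives.

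*Dusp4*, whose product is a nuclear phosphatase of ERK and JNK, was scarce and uneven. It had 796, 425 and 760 reads in the Ctrl libraries and 0, 13 and 162 reads in the LIP libraries. These counts came to 13.38, 7.18 and 13.17 CPM in Ctrl and to 0, 0.2579 and 3.472 CPM in LIP. The groups were apart, but LIP library 3 held nearly all of the LIP reads, and the 0 in LIP library 1 allows up to 3 reads, or 0.0604 CPM, a floor that covers counting error only since the libraries carried no molecular identifiers. The log2 fold change was -3.18 with a wide SE of 1.15 (edgeR adjusted p = 0.0376). The call was lost without Ctrl library 1 (edgeR adjusted p = 0.0848), Ctrl library 2 (0.0625), Ctrl library 3 (0.0868) or LIP library 2 (0.101), and the log2 fold change was -2.6 without LIP library 1 and -6.42 without LIP library 3. *Dusp4* passed the filter on mean FPKM through Ctrl alone (mean 4.19 FPKM, against 0.3721 in LIP), and its call was also lost with no FPKM filter (-3.14, edgeR adjusted p = 0.18), with edgeR's filterByExpr (-3.13, edgeR adjusted p = 0.102) and with DESeq2 (-3.13, adjusted p = 0.142). The value was negative in all 15 alternatives in which *Dusp4* was tested, with adjusted p from 0.000404 to 0.18.

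The cytoplasmic, ERK-selective phosphatases were represented by *Dusp6* and *Dusp7*. *Dusp6*, a feedback target of ERK signalling, was at 107, 75.72 and 109 CPM in Ctrl and at 182.5, 229.8 and 197.7 CPM in LIP. No LIP library reached down to the Ctrl range, and Ctrl library 2 was the lowest of all. The means were 97.22 ± 18.7 and 203.3 ± 24.2 CPM (SD, n = 3 each). On the log2 scale the change was 1.06 (SE 0.157, edgeR adjusted p = 0.000255), or 2.09-fold, which turned to -0.8 under the neutrophil scaling.

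*Dusp7* was at 10.27, 12.86 and 14.39 CPM in Ctrl and at 9.645, 12.64 and 12.3 CPM in LIP. The groups overlapped on this scale, although in the deposited FPKM, which carry no TMM factor, the highest LIP library (3.102) stood just under the lowest Ctrl library (3.17). Its log2 fold change of -0.12 (SE 0.255, edgeR adjusted p = 0.717) had an interval of 2 SE from -0.63 to 0.39. A fall was called under the neutrophil scaling (-1.97, edgeR adjusted p = 4.99e-05), close to the shift of all genes, and the adjusted p ranged from 4.99e-05 to 0.993 over 15 alternatives.

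*Dusp10* and *Dusp16* encode phosphatases selective for JNK and p38. *Dusp10* was at 49, 50.04 and 52.53 CPM in Ctrl and at 10.97, 10.83 and 8.102 CPM in LIP. The Ctrl libraries were almost identical, and all LIP libraries were far below them. The mean went from 50.52 ± 1.81 to 9.969 ± 1.62 CPM (SD, n = 3 each), 5.07-fold lower. The log2 fold change was -2.34 (SE 0.188, edgeR adjusted p = 3.47e-06). It was -2.67 under library totals and -4.2 under the neutrophil scaling, which shift all genes down and so could not reverse it. Whether reads were counted by strand is not given in the sources used here, and the antisense gene *1700056E22Rik* overlaps *Dusp10*. That gene had 275, 187 and 242 reads in Ctrl and 46, 48 and 4 reads in LIP, against 2916, 2962 and 3030 and then 545, 546 and 378 reads for *Dusp10* itself.

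*Dusp16* went the other way under TMM, though not under the neutrophil scaling. It was at 45.49, 29.95 and 40.96 CPM in Ctrl and at 58.42, 70.28 and 64.64 CPM in LIP. The groups were apart, with Ctrl library 2 again the lowest. The log2 fold change was 0.73 (SE 0.174, edgeR adjusted p = 0.00509) under TMM, 0.4 (edgeR adjusted p = 0.079) under library totals and -1.14 under the neutrophil scaling. With limma on log2(FPKM + 1) it was 0.37 with an adjusted p of 0.094, and over its 16 alternatives the adjusted p ranged from 6.73e-05 to 0.0943.

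The remaining genes, *Dusp3* and *Dusp22*, encode small atypical phosphatases that lack the kinase-binding domain of the classical enzymes. *Dusp3*, which acts on ERK and JNK, was at 13.01, 19.99 and 21.53 CPM in Ctrl and at 27.08, 26.82 and 35.88 CPM in LIP. The groups were apart, and the outer values were Ctrl library 1, the lowest, and LIP library 3, the highest. Its log2 fold change was 0.72 (SE 0.237, edgeR adjusted p = 0.0258), and the call was lost without Ctrl library 1 (0.53, edgeR adjusted p = 0.0766) or without LIP library 3 (0.57, edgeR adjusted p = 0.0916). The call was also lost with no FPKM filter (0.75, edgeR adjusted p = 0.0718). In 6 of 15 alternatives the value stayed positive but missed the threshold. Under library totals the log2 fold change was 0.4 (edgeR adjusted p = 0.172), and under the neutrophil scaling -1.12. The adjusted p ranged from 0.00154 to 0.172 over 15 alternatives.

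*Dusp22*, a regulator of T cell receptor and JNK signalling, was at 14.4, 16.4 and 11.08 CPM in Ctrl and at 19.81, 10.65 and 11.77 CPM in LIP. The groups overlapped, and LIP library 1 was the highest of the 6 libraries while the other LIP libraries lay near the bottom of the range. The log2 fold change of 0.01 (SE 0.295, edgeR adjusted p = 0.975) had an interval of 2 SE from -0.58 to 0.6. Across the 10 genes, groups did not overlap in TMM-normalized CPM for 8, beside 63.4% of all genes tested.

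**Figure D2:**
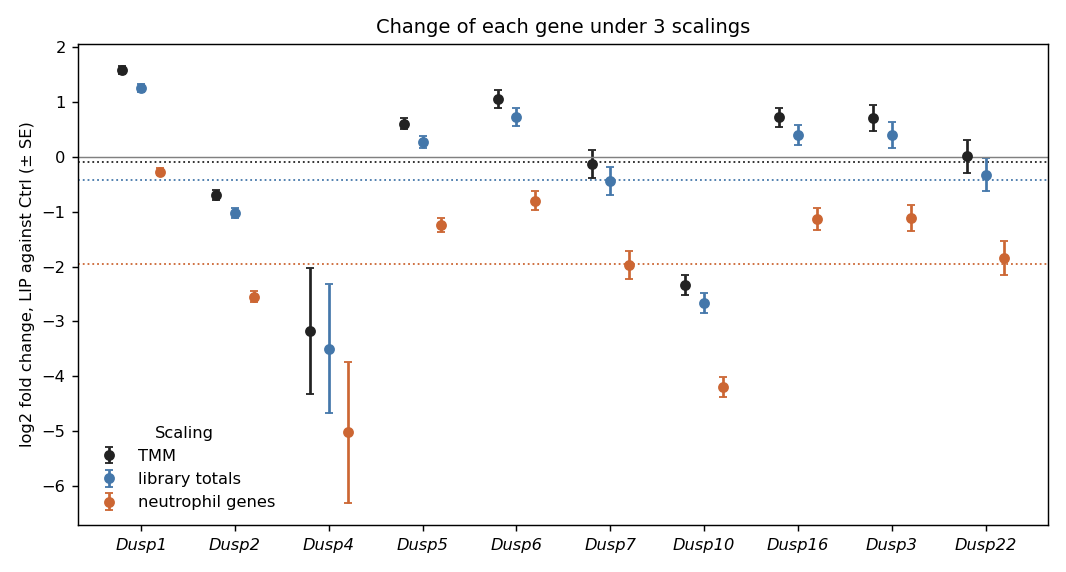
Log2 fold change of each gene in LIP against Ctrl (± SE) under TMM (black), library totals (blue) and scaling on 21 neutrophil genes (orange); dotted lines mark the median of all genes tested under each. The 3 sets of points keep nearly the same spacing by construction. *Dusp1*, *Dusp3*, *Dusp5*, *Dusp6* and *Dusp16* cross to below 0 under the neutrophil scaling. *Dusp22*, at 0.01 under TMM, is below 0 under library totals as well (-0.32).

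Levels can be compared between genes only per length, in FPKM. In Ctrl the order of mean FPKM was *Dusp1* (1750), *Dusp2* (280), *Dusp5* (81), *Dusp6* (31.7), *Dusp10* (16.9), *Dusp16* (5.08), *Dusp4* (4.19), *Dusp3* (3.94), *Dusp7* (3.79) and *Dusp22* (2.78). The first 5 of these did not overlap with their neighbours, while the libraries of *Dusp16*, *Dusp4*, *Dusp3*, *Dusp7* and *Dusp22* overlapped from each gene to the next. In LIP the order was *Dusp1* (4240), *Dusp2* (140), *Dusp5* (100), *Dusp6* (53.5), *Dusp16* (6.8), *Dusp3* (5.26), *Dusp7* (2.82), *Dusp10* (2.69), *Dusp22* (2.26) and *Dusp4* (0.372). *Dusp16* and *Dusp3* overlapped there, as did *Dusp7* with *Dusp10* and *Dusp10* with *Dusp22*. The top 4 genes were thus in the same order in both groups, whereas *Dusp10* moved from position 5 to position 8.

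*Dusp1* made up most of the phosphatase transcripts. The summed FPKM of the 10 genes was 2148, 2318 and 2061 in Ctrl and 4698, 4644 and 4328 in LIP. *Dusp1* took 78.9%, 82% and 79.7% of that sum in the Ctrl libraries and 93.4%, 93.2% and 92.7% in the LIP libraries. The share of *Dusp2* was 13.6%, 12.3% and 12.7% in Ctrl and 2.92%, 3.04% and 3.26% in LIP. Neither share overlapped between groups, and a share within a library, a measure chosen after the data had been seen, needs no scaling between libraries. *Dusp5* rose under TMM, though not under the neutrophil scaling, and yet its share of the sum went from a Ctrl mean of 3.74% ± 0.544 to a LIP mean of 2.2% ± 0.148 (SD over 3 libraries). The larger share of *Dusp1* leaves less of the sum for the rest, and the mean share of every other gene was lower in LIP.

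Ratios of FPKM between genes of one class, which need no scaling either, were computed after the values had been seen. The ratio of *Dusp1* to *Dusp2* was 5.78, 6.65 and 6.26 in Ctrl and 32, 30.6 and 28.4 in LIP. That of *Dusp6* to *Dusp7* was 11.2, 6.32 and 8.12 in Ctrl and 20.3, 19.5 and 17.2 in LIP. The ratio of *Dusp16* to *Dusp10* was 0.362, 0.233 and 0.304 in Ctrl and 2.08, 2.53 and 3.12 in LIP. In each of the 3 ratios the groups were apart, and for *Dusp16* to *Dusp10* the more abundant gene per length changed from *Dusp10* to *Dusp16*. The log2 differences were 2.28, 1.19 and 3.11. They are given as a description, and no conclusion is drawn from a test, since the pairs were chosen with the genes' changes known.

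The phosphatases act on MAP kinases, and the genes of these and of the kinases upstream and downstream of them were taken as lists. Of 9 MAP kinase genes tested, 4 were higher and 2 lower in LIP under TMM, beside 26.5% higher and 27.2% lower of all genes tested. These shares of all genes also stand beside the TMM counts of the lists that follow. Under library totals 3 were higher and 3 lower. Under the neutrophil scaling, which put 9298 of all 10440 genes lower, 8 were lower. Their median log2 fold change was 0.32 under TMM, beside -0.09 for all genes. The most abundant by mean FPKM was *Mapk14*, which encodes p38 alpha, a main substrate of *Dusp1*. It was at 173.5, 107.6 and 157.8 CPM in Ctrl and at 242.1, 240.5 and 277.5 CPM in LIP, with a log2 fold change of 0.79 (SE 0.165, edgeR adjusted p = 0.00237). *Mapk13*, for p38 delta, showed the largest rise of the list, from 22.22, 26.27 and 24.88 CPM to 114.8, 98.28 and 79.45 CPM (log2 fold change 2, SE 0.164, edgeR adjusted p = 3.92e-06). *Mapk11*, for p38 beta, showed the largest fall, from 27.04, 24.46 and 12.83 CPM to 7.894, 3.472 and 4.629 CPM (log2 fold change -2.01, SE 0.38, edgeR adjusted p = 0.00131). These 3 p38 genes thus differed in direction under TMM. The groups did not overlap for any of them, beside 63.4% of all genes tested, and *Mapk13* and *Mapk11* were named for their large changes. The p38 gene *Mapk12* was not among the genes tested.

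Upstream, 2 of 6 MAP kinase kinase genes were higher and 1 lower under TMM, and all 6 were lower under the neutrophil scaling; the median was 0.24. *Map2k3*, an activator of p38, was both the most abundant and the most raised, from 127.9, 112.7 and 121.1 CPM in Ctrl to 275.9, 321.1 and 349 CPM in LIP. Its log2 fold change was 1.39 (SE 0.118, edgeR adjusted p = 5.08e-06). *Map2k5*, which activates ERK5, fell by 0.91 on the log2 scale (SE 0.292, edgeR adjusted p = 0.0229). Of 17 MAP kinase kinase kinase genes, 9 were higher and 2 lower under TMM, beside 26.5% and 27.2% of all genes tested. Under library totals 6 were higher and 4 lower, and under the neutrophil scaling 15 were lower. Their median was 0.55 under TMM. *Map3k3* was the most abundant, at 191.9, 123.9 and 223.8 CPM in Ctrl and 346.8, 382.3 and 415.7 CPM in LIP. *Map3k15* showed the largest rise (log2 fold change 1.64, SE 0.281) and *Map3k4* the largest fall (-0.9, SE 0.226).

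Downstream, 5 of 9 genes for MAP kinase-activated kinases were higher and none lower under TMM, with a median of 0.84, while 7 were lower under the neutrophil scaling and 4 higher and 1 lower under library totals. *Mapkapk2*, the kinase through which p38 stabilises cytokine transcripts, was at 112.5, 90.4 and 107.5 CPM in Ctrl and at 246.7, 200.7 and 262 CPM in LIP. Its log2 fold change was 1.19 (SE 0.136, edgeR adjusted p = 4.09e-05). *Rps6ka2* showed the largest rise of this list (1.39, SE 0.307, edgeR adjusted p = 0.00336), from 7.377, 6.876 and 8.338 CPM to 13.05, 17.73 and 28.4 CPM. Its mean over all libraries was 1.2 FPKM, so it reached the filter of 1 FPKM through the LIP libraries, where it was higher.

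Of 14 immediate early genes, which MAP kinases induce, 12 were higher and none lower in LIP under TMM, whereas 8 were higher and 1 lower under library totals and 1 higher and 12 lower under the neutrophil scaling. Their median log2 fold change was 0.95. *Junb*, the most abundant, was at 5128, 5493 and 5004 CPM in Ctrl and at 10280, 10080 and 9629 CPM in LIP. *Ier3* showed the largest rise, from 96.61, 112.4 and 85.9 CPM to 415.5, 459.4 and 424.6 CPM (log2 fold change 2.14, SE 0.122, edgeR adjusted p = 4.2e-07). The groups were apart for both genes, as for 63.4% of all genes tested. *Jun* and *Klf2*, singled out because they were the only tested genes of the list that passed in neither direction under TMM, had log2 fold changes of 0.01 and 0.09.

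Among other negative regulators of the pathway, 3 of 8 genes were higher and 1 lower under TMM, against 0 higher and 2 lower under library totals and 8 lower under the neutrophil scaling; the median was 0.25. *Ppp2ca*, a catalytic subunit of protein phosphatase PP2A, was the most abundant and rose modestly (log2 fold change 0.47, SE 0.0959, edgeR adjusted p = 0.00208). Its paralogue *Ppp2cb* showed the largest rise (0.88, SE 0.222), and *Pebp1*, an inhibitor of RAF, the largest fall (-1.37, SE 0.287, edgeR adjusted p = 0.00242). Of 16 other dual-specificity phosphatase genes listed, 13 were in the table and 5 reached a mean of 1 FPKM. Of these 5, 1 was higher and 1 lower under TMM, 0 higher and 3 lower under library totals, and 0 higher and 4 lower under the neutrophil scaling. *Dusp23* was at 7.545, 9.731 and 9.257 CPM in Ctrl and at 19.29, 10.61 and 20.04 CPM in LIP (log2 fold change 0.91, SE 0.294, edgeR adjusted p = 0.0236), with LIP library 2 close to the Ctrl range. *Dusp12* fell from 11.7, 7.501 and 7.697 CPM to 3.625, 2.738 and 3.043 CPM (-1.52, SE 0.338, edgeR adjusted p = 0.00352). Its mean over all libraries was 2.13 FPKM, and it reached the filter through the Ctrl libraries, where it was higher. No gene of this group came near the level of *Dusp1*: the highest mean, that of *Dusp23*, was 8.05 FPKM.

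**Figure D3:**
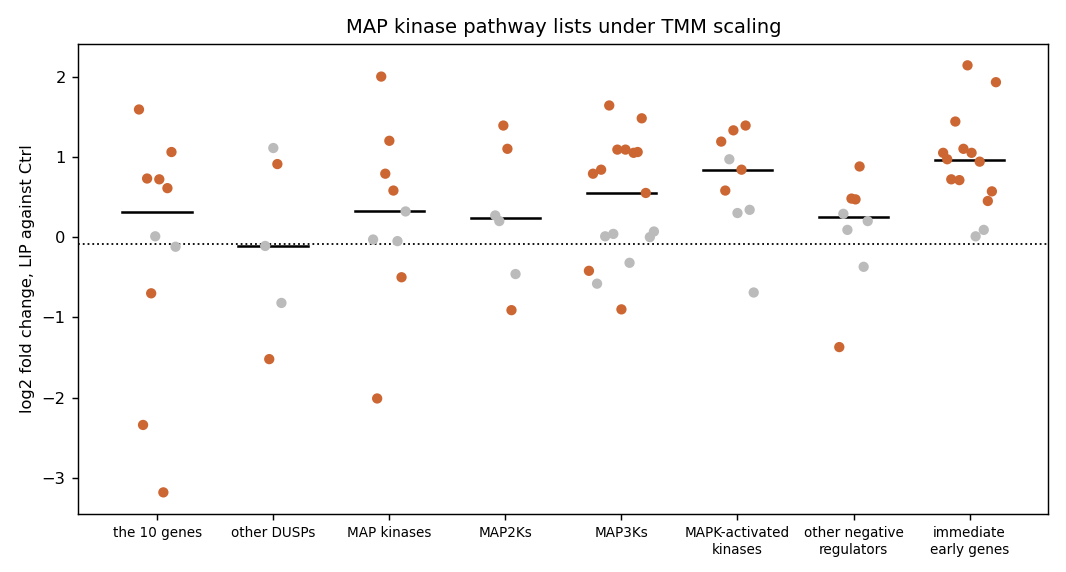
Log2 fold change in LIP against Ctrl under TMM for the 10 genes and for 7 pathway lists; each point is a gene (orange, adjusted p under 0.05; grey, above), black bars are list medians and the dotted line is the median of all genes tested. The immediate early genes have the highest median, 0.95, and under the neutrophil scaling no gene plotted was called higher except 1 immediate early gene.

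Markers of blood cell types moved alongside the phosphatases. All 21 neutrophil markers were higher in LIP under TMM, with 5 higher and 8 lower under the neutrophil scaling, which shares 11 genes with this list; they summed to 17380, 20890 and 19520 FPKM in Ctrl and to 56930, 61100 and 56120 FPKM in LIP, with *S100a9* the most abundant. The 13 B cell and 13 T cell markers were all lower under TMM, library totals and the neutrophil scaling, with median log2 fold changes of -2.47 and -2.39 under TMM. Library totals and the neutrophil scaling shift all genes down, so they could not reverse a fall seen under TMM. The TMM medians were 1.84 for neutrophil, 1.23 for platelet, 1.01 for monocyte and -2.96 for erythroid markers. They were 0.66 for eosinophil and basophil markers and 0.25 for NK cell markers. For comparison, the log2 fold change was 1.59 for *Dusp1*, -2.34 for *Dusp10*, -3.18 for *Dusp4* and -0.7 for *Dusp2*. It was 1.06 for *Dusp6*, 0.73 for *Dusp16*, 0.72 for *Dusp3*, 0.61 for *Dusp5*, 0.01 for *Dusp22* and -0.12 for *Dusp7*. All 8 erythroid genes tested were lower under the 3 scalings, and the 9 in the table summed to 180700, 186100 and 186900 FPKM in Ctrl and to 20190, 19480 and 19530 FPKM in LIP, with *Hba-a1* the most abundant. A CD45+CD11b+Ly6G+ gate would be expected to remove B, T and erythroid cells, and the part of these cell types in the changes of the phosphatase genes was not tested.

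Of 8 monocyte markers, 6 were higher under TMM and 6 lower under the neutrophil scaling; they summed to 520.5, 582.8 and 536.4 FPKM in Ctrl and to 555.9, 624.2 and 573.9 FPKM in LIP, with *Ctss* the most abundant. All 7 platelet markers were higher under TMM and lower under the neutrophil scaling, summing to 778.3, 1034 and 958.4 FPKM in Ctrl and to 1673, 1665 and 1944 FPKM in LIP, with *Ppbp* the most abundant. The 7 NK cell markers summed to 234, 280.3 and 248.8 FPKM in Ctrl and to 236.7, 264.3 and 235.5 FPKM in LIP, with *Gzma* the most abundant. Of these, 3 were higher under TMM, none was called under library totals and all 7 were lower under the neutrophil scaling. The 7 eosinophil and basophil markers in the table summed to between 8.587 and 19.78 FPKM, with *Siglecf* the most abundant, and 1 of 5 tested was higher under TMM, against 3 lower under the neutrophil scaling. None of the listed markers in the table was at 0 in all 6 libraries. The mean log2(FPKM + 1) of a list differed by 1.28 for neutrophil, -2.6 for B cell, -2.13 for T cell, -2.89 for erythroid, 0.57 for monocyte and 0.94 for platelet markers, each without overlap and each with a p of 0.1 in a two-sided exact permutation test (0.133 after adjustment over 8 lists), the smallest the design allows. For NK cell markers it differed by 0.01 (p = 0.9, exact permutation test) and for eosinophil and basophil markers by 0.3 (p = 0.2, exact permutation test).

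By the deposited coordinates, which for all 10 genes equal GENCODE vM21 on GRCm38, the genes lie on 10 different chromosomes. The most abundant, *Dusp1* (ENSMUSG00000024190), spans chr17:26505590-26562128 on the minus strand, and *Dusp10* (ENSMUSG00000039384), which fell, spans chr1:184013302-184075636 on the plus strand. Other genes in the table overlap 5 of them. Within *Dusp1*, *Ergic1* on the opposite strand had at most 2809 reads in a library, where *Dusp1* had at least 308584. Within *Dusp5*, the opposite-strand gene *Gm50394* had at most 594 reads, where *Dusp5* had at least 10550.

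RefSeq promoter windows (GRCm38.p6) were at hand for 9 of the 10 genes, all but *Dusp4*. The 250 bases before each gene start were searched on both strands for the cAMP response element TGACGTCA, its part TGACG, the AP-1 site TGANTCA, the interferon-related GAS motif TTCNNNGAA, the GC box GGGCGG, the CArG box bound by serum response factor and the NF-kappaB site; the full cAMP response element contains TGACG on each strand. *Dusp1* was the only one of the 9 with the full element, which 1.55% of all 32851 such windows held, and it had 1 further TGACG. *Dusp5* was the only one with a CArG box, of which it had 2 next to each other, and 1.47% of all windows held at least 1. TGACG was also found once each in *Dusp5* and *Dusp16*, beside 17.77% of all windows, and the NF-kappaB motif in *Dusp22* alone, beside 7.25%. No window of the 9 held TGANTCA or TTCNNNGAA, which 6.75% and 7.02% of all windows held. GGGCGG was in 7 of the 9, all but *Dusp6* and *Dusp7*, beside 32.74% of all windows. A match describes letters in a window and not binding.

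The windows of the 5 genes with the highest mean FPKM are shown, 3 that rose under TMM and then 2 that fell, because these genes carry the opposite changes within one family. Capitals mark TGACG, the full element and the CArG boxes on either strand; bases that lie in an exon of GENCODE vM21 are left out, so the runs for *Dusp1* and *Dusp5* are 203 and 214 bases long. The RefSeq windows of *Dusp1* and *Dusp10* lie inside the GENCODE spans of these genes and not before them.
*Dusp1*, chr17:26508520-26508722, minus strand: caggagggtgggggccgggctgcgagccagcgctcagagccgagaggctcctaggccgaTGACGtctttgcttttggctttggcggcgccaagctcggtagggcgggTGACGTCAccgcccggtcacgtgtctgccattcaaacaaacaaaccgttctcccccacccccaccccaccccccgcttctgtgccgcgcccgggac
*Dusp5*, chr19:53528895-53529108, plus strand: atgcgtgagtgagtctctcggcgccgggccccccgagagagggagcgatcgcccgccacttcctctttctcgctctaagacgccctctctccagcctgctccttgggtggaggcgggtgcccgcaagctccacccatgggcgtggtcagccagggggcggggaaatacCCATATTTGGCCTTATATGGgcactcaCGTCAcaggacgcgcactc
*Dusp6*, chr10:99262981-99263230, plus strand: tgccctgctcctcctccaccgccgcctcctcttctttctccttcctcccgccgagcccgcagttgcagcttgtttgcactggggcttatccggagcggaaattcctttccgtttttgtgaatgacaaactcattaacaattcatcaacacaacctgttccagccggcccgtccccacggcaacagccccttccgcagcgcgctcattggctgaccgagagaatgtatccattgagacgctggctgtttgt
*Dusp2*, chr2:127335909-127336158, plus strand: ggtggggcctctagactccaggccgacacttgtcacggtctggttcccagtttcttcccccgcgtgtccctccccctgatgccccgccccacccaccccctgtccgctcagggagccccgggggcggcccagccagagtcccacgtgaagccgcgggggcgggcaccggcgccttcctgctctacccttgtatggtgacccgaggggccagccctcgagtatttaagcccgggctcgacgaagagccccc
*Dusp10*, chr1:184034131-184034380, plus strand: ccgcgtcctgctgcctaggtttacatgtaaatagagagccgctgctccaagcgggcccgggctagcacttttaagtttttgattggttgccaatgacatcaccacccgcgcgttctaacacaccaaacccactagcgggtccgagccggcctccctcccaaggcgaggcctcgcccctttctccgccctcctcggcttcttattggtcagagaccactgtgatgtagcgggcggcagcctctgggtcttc
Under the neutrophil scaling the first 3 genes were lower as well. Of the 5 windows, those of *Dusp6*, *Dusp2* and *Dusp10* held none of the marked motifs, and a link between motifs and expression was not tested.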

How the data were processed

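Sorted PB neutrophil libraries, 3 Ctrl and 3 LIP, were compared. The authors deposited 1 table with a read count and an FPKM value per gene and library; the submitters' processing notes name cutadapt 1.9, FastQC and GRCm38, and the aligner and counting tool are not given in the sources used here. Genes whose FPKM averaged 1 or more were kept, and their counts were scaled by TMM and tested with edgeR 4.0.16 (R 4.3.3), with Benjamini-Hochberg adjustment over these genes. The code was tested on simulated data in which far fewer genes changed than were called here. That run checks the code and cannot show which scaling holds for these libraries. Alternatives were library totals, DESeq2 size factors, 21 neutrophil genes, other filters, DESeq2 1.42.0, limma 3.58.1 on log2(FPKM + 1) and log2(FPKM + 0.1), a replicate block and each library left out. Of each pathway list, the gene with the highest mean FPKM and the called genes with the largest change in each direction were named. Up to 1 factor per library, deposited FPKM and counts kept the same ratio, within 2%, for 99.58% of 9260 genes. Members and lists were chosen with earlier results of these data known.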

Additional observations from a re-analysis of the deposited data

How the results depend on the processing

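With 16 alternatives, *Dusp2* and *Dusp10* stayed lower and past the threshold in each, and *Dusp1*, *Dusp5* and *Dusp6* stayed higher and past it in 15. For *Dusp2* and *Dusp10*, library totals and the neutrophil scaling could only lower the values further. Scaling on neutrophil genes changed most: 0 of the 10 phosphatase genes were higher and 10 lower (edgeR; 0 higher at an unadjusted p under 0.05 as well), and 9346 genes were called in all, 48 higher and 9298 lower. There the log2 fold change was -0.27 for *Dusp1*, -1.12 for *Dusp3*, -1.25 for *Dusp5*, -0.8 for *Dusp6*, -1.14 for *Dusp16* and -1.84 for *Dusp22*; the median of all genes was -1.95, so this scaling sets the direction by its construction. The number higher was 3 under library totals, and 3 with limma on log2(FPKM + 1) and on log2(FPKM + 0.1), where *Dusp3* and *Dusp16* missed the threshold. Of all calls, 49.4% were higher under TMM, 31.2% under library totals, and 32.1% and 32.3% with limma. With a mean FPKM of at least 5, 5328 genes were tested and 3666 called, the fewer genes following from the filter, and *Dusp3*, *Dusp4*, *Dusp7* and *Dusp22* were not tested. *Dusp22*, never called except on neutrophil genes, was at -0.32 under library totals, -0.23 and -0.32 with limma, and -0.02 with the replicate block; the cause was not tested. With 1 library left out, its log2 fold change ranged from -0.32 to 0.18, the number of phosphatase genes higher from 4 to 5 and lower from 2 to 3, and the genes called from 4674 to 5385. *Dusp4* was negative in all 15 of its alternatives and lost its call in 7.

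Libraries sharing a number had correlations of -0.0083, 0.0444 and 0.021 in their deviations from the group means, so the numbers did not pair them. A replicate block gave 5 phosphatase genes higher and 3 lower, and a log2 fold change of -4.64 for *Dusp4*.

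The spread between the LIP libraries, at 0, 13 and 162 reads, goes with the wide SE of *Dusp4*, and pools of mice limit every p-value to differences between pools.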
